A study of Caenorhabditis elegans with 2 samples.

Results

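The genes described here are the translation initiation and elongation factor genes of *Caenorhabditis elegans*, taken as the protein-coding genes of the Ensembl WBcel235 annotation whose symbol begins with eif, eef, ife, ifg, iff or etf followed by a hyphen and a digit. The rule found 39 of 19973 protein-coding nuclear genes, and no symbol beginning with etf was among them. The rule itself uses no measured value, but the gene set was chosen with earlier results of these data known. Binding of ATTF-5, named as an AT-hook transcription factor, had been mapped by chromatin immunoprecipitation and sequencing (ChIP-seq) in 1 group of 2 biological replicates, numbered 1 and 3. The animals were whole young adults of strain OP724, both sexes pooled, 66 hours old and synchronised as starved L1 larvae. They carried the mutation unc-119(tm4063) and the integrated transgene wgIs724, in which attf-5 is joined to TY1, EGFP and 3xFLAG and unc-119(+) is supplied. An anti-GFP antibody was used to pull down the chromatin, so the values report the tagged protein in all tissues together. The promoter that drives the transgene is not stated in the labels.

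Each protein is made in a cycle that these genes serve. Initiation factors bring the small ribosomal subunit, the initiator tRNA and the capped mRNA together. Of these, eIF4E recognises the cap, and eIF4G is the scaffold that joins cap and ribosome. The initiator tRNA is carried by eIF2, which is recharged by eIF2B. On the small subunit eIF3 is the scaffold, and eIF1 and eIF1A govern start codon choice. Elongation factor eEF1A then delivers each charged tRNA. The eEF1B proteins, in a complex with eEF1G, recharge eEF1A with GTP. The ribosome is moved along by eEF2, and eIF5A helps it past difficult stretches of peptide. Proteins with AT-hooks are known to contact the minor groove of AT-rich DNA. In *C. elegans* many annotated 5′ ends are sites of trans-splicing rather than of transcription start, and many genes lie in operons, so the distance between a 5′ end and its promoter varies.

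The data are lists of enriched regions, each with a summit and a signal value on the authors' own scale. The thresholded list holds the 3331 regions that the authors kept for reproducibility, with signal from 89.6 to 2844 and a median of 143; these are called peaks. The pooled list (30000 regions) and the lists of replicate 1 (30000) and replicate 3 (28299) also hold background. A gene is called bound when a peak summit lies in its promoter window, which begins 1000 bp before the 5′ end and stops 200 bp after it. Signals of the pooled list and of a single replicate are on different scales. The labels and files used here do not give the read depth, and 1 group allows no test between conditions.

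Of the 39 genes, 23 (59.0%) were bound, where 12.3% of all protein-coding genes were. All 6 elongation factor genes were bound, as were 4 of 5 eIF2B genes, 6 of 11 eIF3 genes and both genes of eIF1 and eIF1A, whereas none of the 6 cap-binding genes (5 eIF4E genes and the eIF4G gene) had a peak. The median signal of the strongest peak of the 23 was 195 (quartiles 140 and 357), and over all 2461 bound protein-coding genes it was 164 (quartiles 119 and 256). A signal above the median of the peak list was found at 16 of the 23 (69.6%) and at 60.3% of all bound genes. These shares are descriptions of genes and carry no test.

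**Figure D1:**
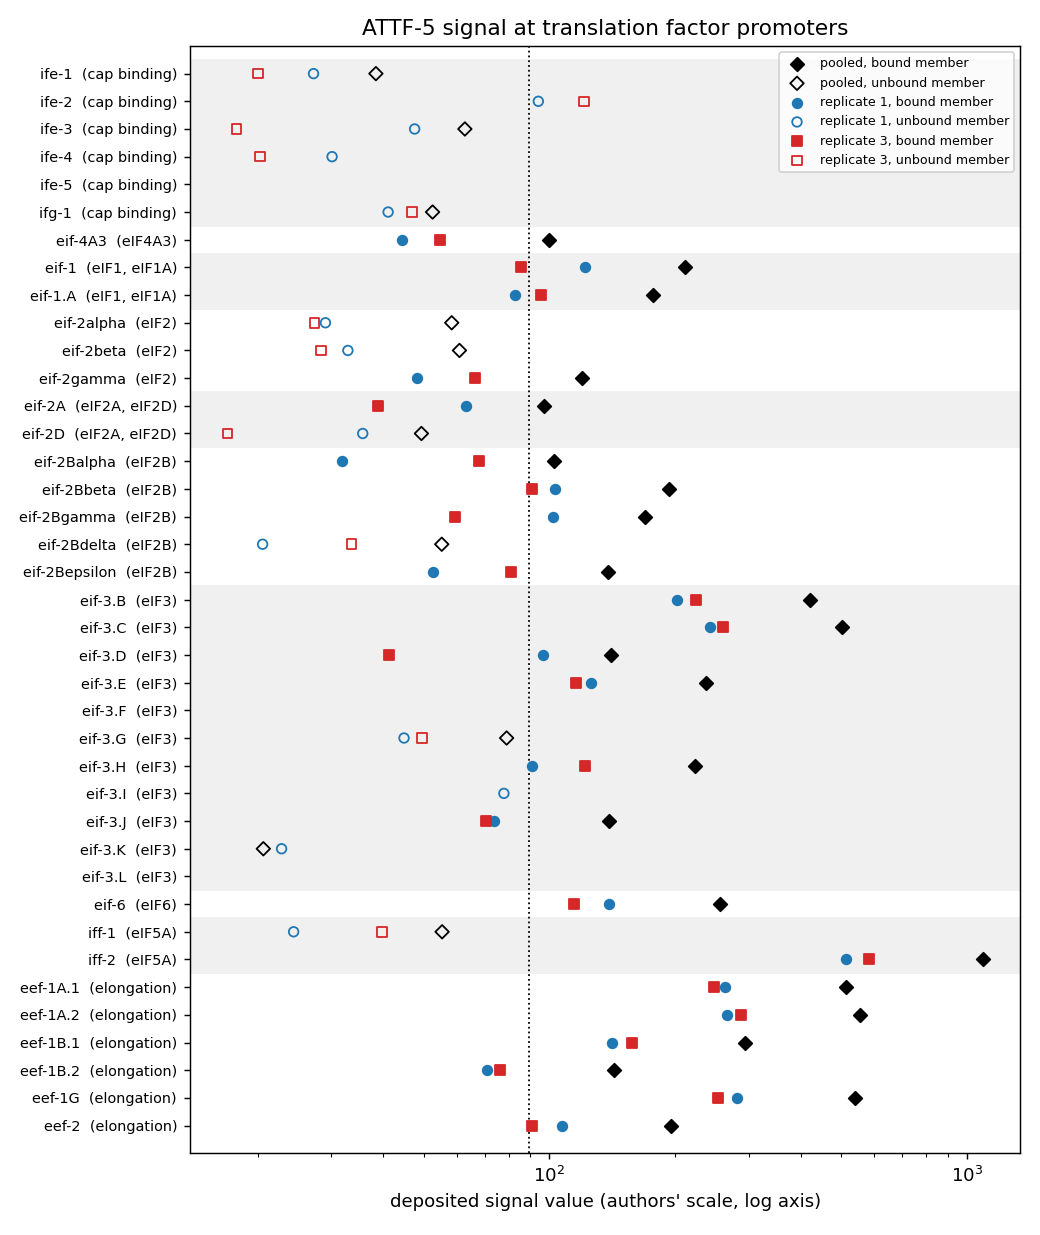
Signal at each of the 39 genes (rows, grouped by role) on a log axis, for the pooled alignments (diamonds), replicate 1 (circles) and replicate 3 (squares). Filled symbols are the strongest peak of a bound gene and open symbols the strongest region in the window of an unbound gene; the dotted line is the lowest signal of the thresholded list, 89.6, and applies to the pooled values only. The gene iff-2 lies farthest right at 1092, and every cap-binding gene has open symbols or none.

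The bases around the summits of the strongest peak and of 5 elongation factor peaks are shown because these carry the main result; eef-2 is not shown. Each is read on the strand of its gene from the WBcel235 genome of RefSeq, whose sequence has ce11 coordinates, and is centred on the summit. In the first pair the capitals mark GAGA on either strand, a motif present 3 times at iff-2 and 6 times at eef-1A.1, counting overlapping copies.
iff-2 (chrII:8561341-8561541, minus strand): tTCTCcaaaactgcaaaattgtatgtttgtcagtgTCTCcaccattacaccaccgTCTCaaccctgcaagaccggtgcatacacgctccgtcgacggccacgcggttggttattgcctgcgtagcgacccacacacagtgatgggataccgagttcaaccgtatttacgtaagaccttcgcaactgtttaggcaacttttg
eef-1A.1 (chrIII:6972000-6972200, minus strand): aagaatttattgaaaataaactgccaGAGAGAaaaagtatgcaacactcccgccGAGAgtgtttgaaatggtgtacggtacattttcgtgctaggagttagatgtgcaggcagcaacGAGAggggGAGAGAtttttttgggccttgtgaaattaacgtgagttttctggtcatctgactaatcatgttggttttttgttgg

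In the second pair the capitals mark the longest word that both windows hold, 15 bases. Within 100 bp of the summit, 3 of the 1891 promoter peaks (0.159%) held this word on either strand, the pair itself included. So did 1 of the 19973 windows from 250 to 50 bp upstream of a protein-coding 5′ end. Peaks and windows cover different stretches, so these counts are not a like comparison.
eef-1A.2 (chrX:7823173-7823373, plus strand): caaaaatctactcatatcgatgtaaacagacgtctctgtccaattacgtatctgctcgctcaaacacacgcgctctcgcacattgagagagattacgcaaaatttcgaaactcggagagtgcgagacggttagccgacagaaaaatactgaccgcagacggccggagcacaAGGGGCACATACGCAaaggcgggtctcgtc
eef-1G (chrV:10965586-10965786, plus strand): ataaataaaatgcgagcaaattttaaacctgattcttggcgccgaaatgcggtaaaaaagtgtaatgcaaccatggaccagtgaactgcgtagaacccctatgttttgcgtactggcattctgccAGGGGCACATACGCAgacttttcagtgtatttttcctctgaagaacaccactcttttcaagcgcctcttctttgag

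The paralogues eef-1B.1 and eef-1B.2 shared a word of 11 bases, in capitals, which 6 promoter peaks (0.317%) and 19 of the promoter windows (0.0951%) held. The 6 peaks include this pair. A shared word of this length was not particular to the paralogues. The longest word of eef-1B.1 with eef-2 and with eif-3.C also had 11 bases. That of eef-1B.2 had 14 with eif-3.D and 12 with iff-2.
eef-1B.1 (chrIII:7973308-7973508, minus strand): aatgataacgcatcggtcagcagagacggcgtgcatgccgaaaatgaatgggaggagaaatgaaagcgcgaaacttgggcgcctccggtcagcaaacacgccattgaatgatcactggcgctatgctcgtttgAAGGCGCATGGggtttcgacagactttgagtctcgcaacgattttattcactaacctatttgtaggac
eef-1B.2 (chrIV:15037086-15037286, plus strand): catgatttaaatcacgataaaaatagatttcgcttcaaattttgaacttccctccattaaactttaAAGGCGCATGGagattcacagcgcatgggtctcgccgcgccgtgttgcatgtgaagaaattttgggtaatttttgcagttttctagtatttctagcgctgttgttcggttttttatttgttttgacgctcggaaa
These words were chosen after the sequences were seen. Over the 253 pairs of bound genes the longest shared word had from 6 to 16 bases, with a median of 9. Only 3 pairs reached 15 bases, and besides the pair above they were eef-1A.1 with eef-2, at 16, and eif-3.E with eif-6, at 15.

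The elongation factor genes were bound without exception, with signals from 143 to 555 and a median of 405. The gene pair for eEF1A, the carrier of charged tRNAs, had peaks of nearly equal height at nearly the same distance from the 5′ end. At eef-1A.2 (WBGene00001169, X) the signal was 555, with 267 in replicate 1 and 287 in replicate 3, and the summit lay 381 bp upstream (offset −381 bp). At eef-1A.1 (WBGene00001168, III) it was 515, with 264 in replicate 1 and 248 in replicate 3, at an offset of −388 bp. The 2 genes differ in their neighbours: the window of eef-1A.2 alone held its peak, while the peak of eef-1A.1 also lay in the window of rfc-4, a clamp loader gene transcribed the other way, whose 5′ end was 153 bp from the summit and so the nearer one.

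The genes for the exchange complex of eEF1A covered a wider range. The eEF1 gamma gene eef-1G (WBGene00008920, V) had a signal of 540, with 282 in replicate 1 and 254 in replicate 3 and an offset of −33 bp. The window of ctf-4, transcribed the other way, held this summit too. The beta or delta subunit gene eef-1B.1 (WBGene00018846, III) had 295, with 141 in replicate 1 and 158 in replicate 3. Its paralogue eef-1B.2 (WBGene00012768, IV) had 143, with 70.9 in replicate 1 and 76.3 in replicate 3. Both replicates thus placed eef-1B.1 above eef-1B.2, by about the same factor as the pooled list. The summit of eef-1B.1 lay 22 bp upstream of its 5′ end, inside the annotated noncoding RNA gene F54H12.9, and in the window of the aconitase gene aco-2. A weaker second summit also lay in the eef-1B.1 window. The eEF2 gene eef-2 (WBGene00001167, I), for the factor that moves the ribosome by a codon, had a signal of 195, with 107 in replicate 1 and 91.1 in replicate 3. Its summit was 4 bp from the 5′ end, the closest of all 23, and the window of clsp-1 held it too.

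Of the eIF5A pair, of which iff-1 is known in worms for its germline role and iff-2 for its role in the soma, iff-2 held the highest signal of all 39 genes and iff-1 had no peak. The iff-2 peak (WBGene00002065, II 8561241 to 8561651) had a signal of 1092 and ranked 13 among all 3331 peaks. Replicate 1 gave 512 and replicate 3 gave 582 there, ranks 15 and 11 of their own lists, and the summit was 74 bp upstream of the 5′ end. The gene F54C9.14, transcribed away from iff-2, shared it. At iff-1 (WBGene00002064, III) the strongest pooled region in the window had a signal of 55.3, with a −log10 q of 1.44, against a lowest value of 3.09 in the thresholded list. The strongest region of replicate 1 gave 24.4 and that of replicate 3 gave 39.8, at offsets of −417 and 19 bp. These 2 regions did not coincide, and weaker regions in the window were not compared. The nearest peak was far off, at an offset of −18471 bp.

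The eIF3 scaffold was split, with 6 of 11 genes bound. The core subunit genes eif-3.C (WBGene00001226, I; signal 502, replicate 1 243, replicate 3 261) and eif-3.B (WBGene00001225, II; signal 420, replicate 1 202, replicate 3 225) had the strongest peaks of the complex, and no other gene's window held either. The next were eif-3.E (237) and eif-3.H (223), subunits that budding yeast lacks, each in a divergent promoter with a neighbour known by its sequence name. Replicates 1 and 3 gave 126 and 116 at eif-3.E, and 91.1 and 122 at eif-3.H. Lower still were eif-3.D (141), which shared its peak with R08D7.4, and eif-3.J (139), the gene of a loosely attached subunit. The replicates were unequal at eif-3.D, with 96.7 and 41.2, and close at eif-3.J, with 73.8 and 70.4. The summit at eif-3.J was the farthest of all 23, at an offset of −962 bp, in the 3′ UTR of slc-25A46. The remaining 5 were eif-3.F, eif-3.G, eif-3.I, eif-3.K and eif-3.L.

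These 5 unbound eIF3 genes were unlike each other in the unthresholded lists. For eif-3.F and eif-3.L no list had a summit in the window. At eif-3.K the pooled signal was 20.6, close to the lowest pooled value of 20.3. The gene eif-3.G had the highest pooled value of the unbound genes, 79.0 at an offset of −279 bp, with 49.5 in replicate 3 at −285 bp. The strongest replicate 1 region in its window was another one, 44.9 at −34 bp, and a peak with a signal of 176 lay just outside the window, at an offset of −1040 bp. The peak of eif-3.J, on another chromosome, lay just inside that gene's own window, at an offset of −962 bp. At eif-3.I replicate 1 alone had a region, with a signal of 77.8 at an offset of −208 bp. Its −log10 q of 3.61 was the top value of the replicate 1 list, a value shared with lower regions such as that at eef-1B.2, of rank 1953. With the strongest regions of replicate 1 in place of the peaks, eif-3.I was bound.

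The eIF2B genes, for the factor that recharges eIF2 with GTP, were bound in 4 of 5 cases at moderate signals, and each of these 4 calls was lost under at least 1 other setting. The highest was eif-2Bbeta (WBGene00012950, I) at 193, with 103 in replicate 1 and 91.1 in replicate 3. Its summit also lay in the window of Y47H9C.8, transcribed the other way, whose 5′ end was the nearest one, at 57 bp. The next was eif-2Bgamma (WBGene00004090, II) at 169, with 102 in replicate 1 and 59.5 in replicate 3. Its summit lay 863 bp upstream, inside the noncoding genes sup-39 and C15F1.14 and an intron of C15F1.5, so that peak overlies other annotated genes. The catalytic subunit gene eif-2Bepsilon (WBGene00008428, II) had 138, with 52.5 in replicate 1 and 81.1 in replicate 3, and shared the summit with piga-1. At eif-2Balpha (WBGene00014221, III), a regulatory subunit gene, the signal was 102, with 31.8 in replicate 1 and 67.7 in replicate 3, and the window of mut-7 held the summit as well. The regulatory subunit gene eif-2Bdelta was unbound, with a pooled signal of 55.2 at an offset of 5 bp.

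Among the 3 genes of eIF2 itself, only eif-2gamma, for the GTP-binding subunit, was bound. Its stronger summit had a signal of 120 (replicate 1 48.2, replicate 3 66.4). That summit lay 863 bp upstream and 88 bp from the 5′ end of the tubulin cofactor gene tbca-1. A second, slightly weaker summit (signal 109, replicate 1 41.3, replicate 3 67.3) also lay in the window. In the smaller window of 500 bp before to 100 bp after the 5′ end, which leaves out the first summit, eif-2gamma stayed bound. It also stayed bound with assignment to the closest 5′ end only, but it was lost when only peaks above the median signal were used. At eif-2alpha, the subunit phosphorylated in stress, the strongest pooled region had a signal of 58.4, and at eif-2beta 60.9. The gene eif-2alpha starts 132 bp downstream of the prohibitin gene phb-1 on the same strand, and phb-1 had a peak of signal 103 at an offset of −441 bp. Seen from eif-2alpha that peak was at −1769 bp, outside the window. Operon membership was not tested, since no operon annotation was used here.

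The start codon factors were both bound. The eIF1 gene eif-1 (WBGene00020868, II) had a signal of 212, with 121 in replicate 1 and 85.3 in replicate 3. Its summit was at an offset of −395 bp and 23 bp from the 5′ end of vps-24, and the window of pigb-1 held it too. The eIF1A gene eif-1.A (WBGene00019162, IV) had 178, with 82.7 in replicate 1 and 95.6 in replicate 3. The window of H06H21.37 also held its summit. The gene of eIF6, a factor that keeps the large subunit free, had a peak of 257 (138.7 in replicate 1 and 114.7 in replicate 3) that it shared with the proteasome gene pbs-2. At eif-2A, named for a factor that can bring the initiator tRNA independently of eIF2, the signal of 96.8 was the lowest of all 23, with 63.1 in replicate 1 and 38.8 in replicate 3, and eif-2D was unbound with a pooled signal of 49.4. The gene eif-4A3 encodes an RNA helicase of the exon junction complex rather than an initiation factor and was taken in by its symbol; its peak of 99.9 (44.3 in replicate 1 and 54.8 in replicate 3) lay 48 bp from the 5′ end of vps-20.

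No gene of the cap-binding step had a peak, yet the replicate lists were not uniformly empty there. At ife-2, an eIF4E gene on X, replicate 1 had a region of signal 94.1 at −234 bp and replicate 3 one of 121 at −240 bp, while the pooled list had none in the window. Each had the top −log10 q of its list (3.61 and 3.63), which is a shared value and no high rank. The regions at eef-1B.2 (rank 1953 in replicate 1) and eif-2gamma (rank 1849 in replicate 3) had it too. Both values exceed the medians of the same replicates over the promoter peaks, 83.7 and 77.9. Such regions were rare. At 1106 replicate 1 regions at or above their median, a replicate 3 summit at or above the replicate 3 median lay within 100 bp. Of these 1106 regions, 7 (0.633%) overlapped no pooled region. The ife-2 call therefore rests on the pooled list lacking this region, and why it is lacking was not tested. Taking as many of the strongest regions of a single replicate as there are peaks, ife-2 was bound in either replicate, and ifg-1 in replicate 3. The eIF4G gene ifg-1, for the scaffold that joins cap and ribosome, had a pooled signal of 52.5, with 41.1 in replicate 1 and 46.9 in replicate 3 at offsets of −424 and −637 bp. Of the other eIF4E genes, ife-3 had a pooled signal of 62.8 and ife-1 one of 38.4, ife-4 had weak regions in the replicates only (30.2 and 20.3), and ife-5 had no summit in any list. A peak with a signal of 297 lay just outside the ife-3 window, at an offset of −1114 bp. The nearest peaks of ife-1 (121) and ife-2 (134) lay downstream, at offsets of 1324 and 1517 bp.

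Across all 16 unbound genes, 10 had a pooled region in the window, with signals from 20.6 to 79.0, and 3 had none in any list. Counting regions of any strength, 33 of the 39 genes (84.6%) had a pooled summit in the window, where 38.6% of all protein-coding genes did. The same held for replicate 1, with 36 genes (92.3%) against 38.7%, and for replicate 3, with 34 genes (87.2%) against 40%. Many of these regions can be background.

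**Figure D2:**
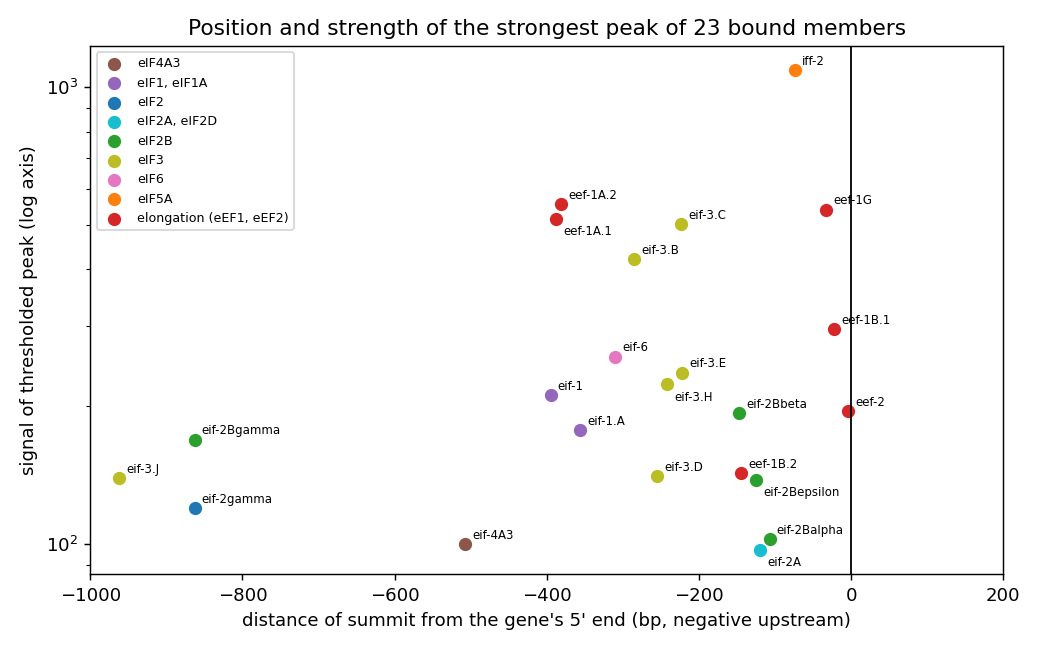
Distance of the summit of the strongest peak from the 5′ end of each of the 23 bound genes (x axis, bp, negative upstream) and its signal (y axis, log scale), coloured by role. All 23 summits lie upstream, 19 of them within 500 bp, and the other 4 belong to eif-4A3, eif-2gamma, eif-2Bgamma and eif-3.J. The window itself reaches farther upstream than downstream.

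Summits lay upstream of the 5′ end in all 23 bound genes, with a median offset of −242 bp and quartiles of −384.5 and −122.5 bp. Over all bound protein-coding genes the median was −238 bp, with quartiles of −426 and −128 bp. The window reaches 1000 bp upstream and only 200 bp downstream, which favours upstream summits. With piRNA genes left out of the count, no other annotated gene lay under 19 of the 23 summits. Neither the upstream share nor this last share was counted over all bound genes. A summit in the windows of several genes was found for 16 of the 23 (69.6%) and for 51.9% of all bound genes, and the gene's own 5′ end was the nearest one to the summit in 15 (65.2%) and 72.4%. Genes with a divergently transcribed upstream neighbour were bound in 15 of 21 cases and the others in 8 of 18. The same order held over all protein-coding genes, where 17.9% of those with a divergent upstream neighbour were bound and 7.66% of those with one on the same strand. The peak of such a promoter cannot be given to one of its genes from these data. Each bound gene had a strongest peak of its own, and no 2 of the 23 shared one.

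**Figure D3:**
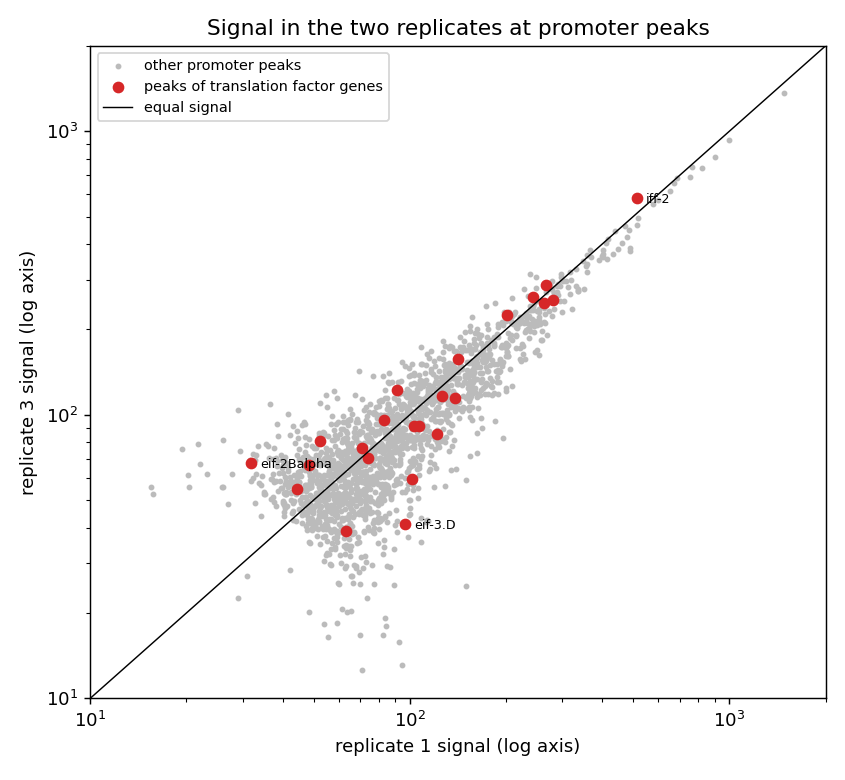
Signal in replicate 1 (x axis) and replicate 3 (y axis), both on log axes, for the 1824 promoter peaks that each replicate matched with a summit no more than 100 bp away. The 23 peaks of translation factor genes are red and all others grey; eif-3.D and eif-2Balpha lie more than 2-fold from the line of equal signal.

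Each replicate matched the peak summit to 100 bp at all 23 bound genes, and at 96.5% of the 1891 promoter peaks; the peaks had been kept for reproducibility, so this is a description. On the log2 scale, replicate 1 over replicate 3 was −0.10 in the median (SD 0.49, n = 23 peaks), beside 0.10 (SD 0.50) over all promoter peaks. Replicate 1 was higher at 11 genes and replicate 3 at 12. A difference of more than 2-fold was found at 2 of the 23 (8.70%), eif-3.D (log2 ratio 1.23) and eif-2Balpha (−1.09), and at 5.87% of all promoter peaks. The strong peaks of iff-2, eif-3.B, eif-3.C, eef-1A.1, eef-1A.2 and eef-1G all lay between −0.18 and 0.15, and in each replicate these 6 were above all the other bound genes. The order among eef-1A.1, eef-1A.2, eef-1G and eif-3.C changed from one replicate to the other. With only the strongest regions of replicate 3 in place of the peaks, eif-2A and eif-3.D were no longer bound, and with those of replicate 1, eif-2Balpha and eif-4A3 were not.

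**Figure D4:**
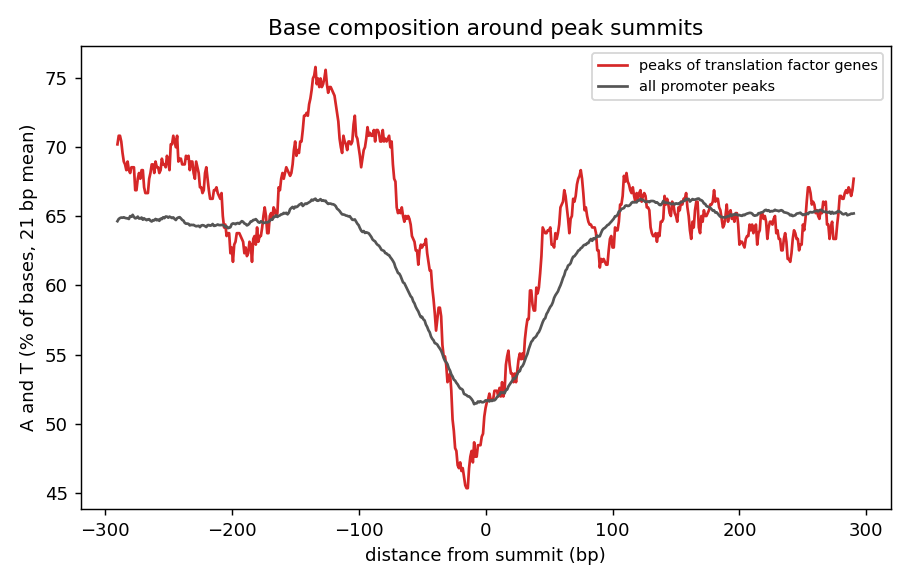
Share of A and T (y axis, percent of bases, mean over 21 bp) against distance from the summit (x axis, bp, plus strand of the genome) for the 23 peaks of translation factor genes (red) and all 1891 promoter peaks (grey). Both curves fall towards the summit, to 45.3% at −15 bp and to 51.4% at −9 bp.

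The summits were poorer in A and T than their flanks. In the 101 bp centred on the summit the AT content was 53.9% ± 7.92 (SD, n = 23 peaks), and in the flanks from 150 to 200 bp it was 64.8% ± 7.28. The summit exceeded its flanks in 5 of the 23, namely eif-2A, eif-2Balpha, eif-3.B, eif-6 and eef-1A.2, and in 15.9% of all promoter peaks. All promoter peaks together had 53.9% ± 8.27 at the summit and 65.2% ± 7.93 in the flanks (n = 1891), and the position 150 bp upstream of every protein-coding 5′ end had 65.8% ± 8.33 (n = 19973). The strongest peak, iff-2, had the lowest AT content of the 23, 38.6%, in the sequence printed above, and eif-2Balpha the highest, 68.3%. Among the 23 the longest unbroken run of A and T in these 101 bp was 19 bases, at eif-6, and the median was 7.

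A few short motifs were counted on both strands within 100 bp of the summits. AATT, which is its own reverse complement, was present at 22 of 23 summits (95.7%), at 80.6% of promoter peaks and in 92.5% of the promoter windows. GAGA was present at 19 of 23 (82.6%), at 90.9% of promoter peaks and in 79.1% of promoter windows, with the most copies at eef-1A.2, 8. CTGCGTCT was present at none of the 23, at 14.0% of promoter peaks and in 2.80% of promoter windows. A match is a description of the letters and no evidence of a binding site.

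Other translation genes were listed by name, and 35 of 42 names matched a gene that the symbol rule leaves out. Of these 35, 13 (37.1%) were bound, where 12.3% of all protein-coding genes were. The strongest was drr-2, an eIF4H homologue, with a signal of 1916 on a peak also in the window of set-16, followed by the eIF4E-binding protein gene ifet-1 (552), whose peak rps-1 shares. Both release factor genes were bound, erfa-3 at 267 and erfa-1 at 137, as were 2 of 4 ABC protein genes, abcf-2 (296) and abcf-3 (117) but not abcf-1 or abce-1, both mitochondrial EF-Tu genes tufm-1 (135) and tufm-2 (191), and the eEF2 kinase gene efk-1 (166). The others were the poly(A)-binding protein gene pab-2 (146), the nuclear cap-binding gene ncbp-1 (93.2), the S6 kinase gene rsks-1 (109), which had no replicate 1 summit within 100 bp, and the Raptor gene daf-15 (155). Neither the eIF4A gene inf-1 nor the eIF5B gene iffb-1 was bound, and neither had a pooled region in its window.

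Ribosomal protein genes were bound in larger shares than the 39 genes, at 38 of 47 for the large subunit (80.9%, median signal 252) and 27 of 31 for the small subunit (87.1%, median 252). Aminoacyl-tRNA synthetase genes were bound at 9 of 32 (28.1%, median 148). The differences between these gene groups were not tested.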

How the data were processed

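Peak lists from ChIP-seq of tagged ATTF-5 in whole young adults (2 replicates, numbered 1 and 3) were analysed. Per the notes deposited with the files, the authors derived a list for each replicate from its alignments and a control, a pooled list from all alignments, and from these a thresholded list by reproducibility. The peak caller and the depth are not given in the sources used here. The signal of each region is a deposited score on the authors' own scale and was used as given, and the deposited −log10 q was used for description only. Coordinates are in ce11, per the labels. The summit is the region's start plus the offset in the last column.

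Genes were those of Ensembl release 115. A gene was bound when a summit fell in the window that starts 1000 bp before its 5′ end and ends 200 bp after it, and its strongest summit was described. Replicate summits were matched within 100 bp. Assignment of summits to genes was tested on simulated data. All genes of the symbol rule are named, in order of role. Python 3.11.15, numpy 2.4.6 and pandas 2.3.3 were used. No test was run: 1 group has no contrast, and genes are not replicates. The replicates are labelled as biological, and nothing says how they were grown. The members and lists were chosen with earlier results of these data known. Alternatives were a smaller window (500 bp before and 100 bp after), assignment to the closest 5′ end only (at most 2000 bp away), any transcript's 5′ end, peaks above the median signal, removal of summits less than 200 bp from a stronger one, the strongest regions of 1 replicate or of the pooled list (as many as there are peaks), and other matching distances.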

Additional observations from a re-analysis of the deposited data

How the results depend on the processing

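The count of 23 bound genes was 16 to 24 under the other settings, where the share of all genes bound ran from 7.43 to 13.2%. Of the 39 genes, 11 were bound in every setting tried: eef-1A.2, eef-1B.1, eef-1B.2, eef-1G, eef-2, eif-1.A, eif-3.B, eif-3.C, eif-3.E, eif-6 and iff-2. The share of all protein-coding genes bound in every setting was not counted. With the nearest 5′ end, 17 were bound; eef-1A.1, eif-1, eif-2Bbeta, eif-2Bepsilon, eif-3.D, eif-3.H and eif-4A3 were lost and eif-3.G gained. The smaller window had 20 and lost eif-2Bgamma, eif-3.J and eif-4A3. Any transcript's 5′ end gave 24 with eif-3.I, and peaks above the median gave 16 without eif-2A, eif-2Balpha, eif-2Bepsilon, eif-2gamma, eif-3.D, eif-3.J and eif-4A3. Without replicate 1 there were 24 (eif-2A and eif-3.D lost; eif-3.G, ife-2 and ifg-1 gained), and without replicate 3 there were 23 (eif-2Balpha and eif-4A3 lost; eif-3.I and ife-2 gained), so the absence of bound cap-binding genes does not hold for either replicate alone. The median offset of −242 bp became −184.5 bp in the smaller window, −222 bp with the nearest 5′ end, −248.5 bp with any transcript's 5′ end and −232.5 bp with peaks above the median signal, and was −242 to −238 bp with 1 replicate left out. The median signal of 195 was 218 in the smaller window and 247 with peaks above the median. AT content at summits was 55.0% in the smaller window, 52.5% with peaks above the median, 60.1% over 100 bp on either side, and 54.7 to 55.3% with 1 replicate left out. The 13 other translation genes became 8 with the nearest 5′ end and 8 with peaks above the median, and 10 to 13 with 1 replicate left out. With matching to 50 bp, 19 of the 23 had a summit in both replicates, and the share over all promoter peaks at that distance was not counted. The cause of these changes was not tested beyond what each setting removes. No paired analysis was possible because there is only 1 group.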

Other observations

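The region at ife-2 that both replicate lists hold and the pooled list lacks was 1 of 7 such regions. The others lay in the windows of pash-1, lrk-1, C18F10.7, oga-1 and, for a single region, of smc-3, mib-1 and gly-9, while 1 on X lay in no promoter window. Their signals ran from 88.8 to 136 in replicate 1 and from 87.5 to 125 in replicate 3. These regions were singled out after the ife-2 values were seen.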
